A study of Mus musculus with 6 samples.

Results

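The Janus kinases (JAKs) and the signal transducers and activators of transcription (STATs) were followed in bone marrow (BM) cells that carried an activated JAK3. The 9 genes, Jak1, Jak2, Jak3, Tyk2, Stat3, Stat4, Stat5a, Stat5b and Stat6, were chosen by symbol from the 54532 genes of the deposited table, and all 9 were among the 13393 genes tested. To determine how loss of Phf6 changes the transcriptome in the context of JAK3 M511I, RNA was sequenced from BM cells of C57BL/6 mice at day 100 after transplantation. The 3 libraries labelled Phf6 WT are called WT 1 to WT 3, and the 3 labelled Phf6 KO are called KO 1 to KO 3. Both groups carried JAK3 M511I, which the study introduced with a retrovirus that also encodes GFP into lineage-negative donor BM cells before transplanting them into lethally irradiated recipients. By the study's methods the WT donors were Phf6 fl/y males without Cre, and the KO donors were Phf6 fl/y males with a Cre driven by the Vav1 promoter, which is active throughout the hematopoietic system. The labels do not name the Cre line or say whether GFP+ cells were sorted before RNA extraction, and the recipients' own blood cells may contribute to BM. The labels do not say that the 3 libraries of a group came from separate mice, so p-values measure only the spread between these libraries.

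A cytokine binds its receptor at the cell surface, and the JAKs bound to the receptor's tails phosphorylate each other, the receptor and then STAT proteins, which pair and enter the nucleus to switch on target genes. Receptors select among the kinases and factors: JAK3 is held by the common gamma chain of the interleukin 2, 4, 7, 9, 15 and 21 receptors and works beside JAK1, while JAK2 and TYK2 serve other receptors. In T cells STAT5 conveys growth and survival signals of the interleukin 2 family, STAT6 conveys interleukin 4, STAT4 conveys interleukin 12 and STAT3 conveys interleukins of the 6 and 10 families. Activating changes in this pathway are known in T-cell leukemia.

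Levels are given as FPKM, the fragments of a gene per kilobase of its length, scaled to a library size that the authors divided by. Differences are log2 fold changes of FPKM + 1, KO minus WT, from limma with Benjamini-Hochberg adjustment over the 13393 genes, and a gene is said to have risen or fallen when its adjusted p was under 0.05. Recovered reads came to between 13015823 and 18235095 per library. WT 2 stood apart from the other libraries: 17.1% of its reads were in genes shorter than 1 kb against 3.11% to 5.01% elsewhere, and the summed FPKM of erythroid markers was 68131 there against 66.7 to 562 elsewhere, so results are given with and without it. T cell markers, all 12 of them at 1 FPKM or more in every library, summed to 1138 to 2137 FPKM in WT and 1151 to 1284 FPKM in KO. Neutrophil markers summed to 6972 to 96425 FPKM in WT and 96.1 to 295 FPKM in KO, with 14 of 14 markers lower in KO, and monocyte and macrophage markers summed to 678 to 5338 and to 20.6 to 33.1 FPKM, with 9 of 12 lower. B cell markers summed to 14.9 to 1110 FPKM in WT, highest in WT 2, and to 2.20 to 2.79 FPKM in KO. The part of these cells in the results below was not tested, and fewer cells of a type and less RNA per cell cannot be told apart in bulk samples. For primary recipients the study reported, by flow cytometry, more myeloid and B cells among GFP+ BM cells in KO than in WT, opposite to these marker sums. In secondary recipients it described the KO leukemia cells as mainly lymphoid. Which transplantation these libraries came from is not given in the sources used here, and the difference was not tested. Phf6 itself had 7.47, 3.67 and 8.02 FPKM in WT 1 to WT 3 and 6.73, 5.50 and 5.11 FPKM in KO 1 to KO 3 (log2 fold change -0.07, adjusted p = 0.893). The value counts the whole gene, of which the study's allele loses only some exons, and exons were not examined here. It does not separate the groups, the reason was not tested, and every direction given here rests on the labels.

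Of the 9 genes, Stat5a rose and Jak3, Stat4 and Stat6 fell in the libraries labelled KO. The threshold was not passed by the remaining 5, Stat5b, Stat3 and the kinases Jak1, Jak2 and Tyk2. Over all genes tested, 26.4% passed it, 13.1% as higher and 13.3% as lower in KO, so changes in either direction were common in this comparison. Without WT 2, 2 members were higher (Stat5a and Stat5b) and 6 were lower (all but Jak2), beside 52% of all genes tested. By level alone, 2 members had KO libraries all above the WT libraries and 4 had them all below, beside 26.2% and 22.9% of all genes. The median log2 fold change was -0.85 for the 9 members and 0.09 for all genes.

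**Figure D1:**
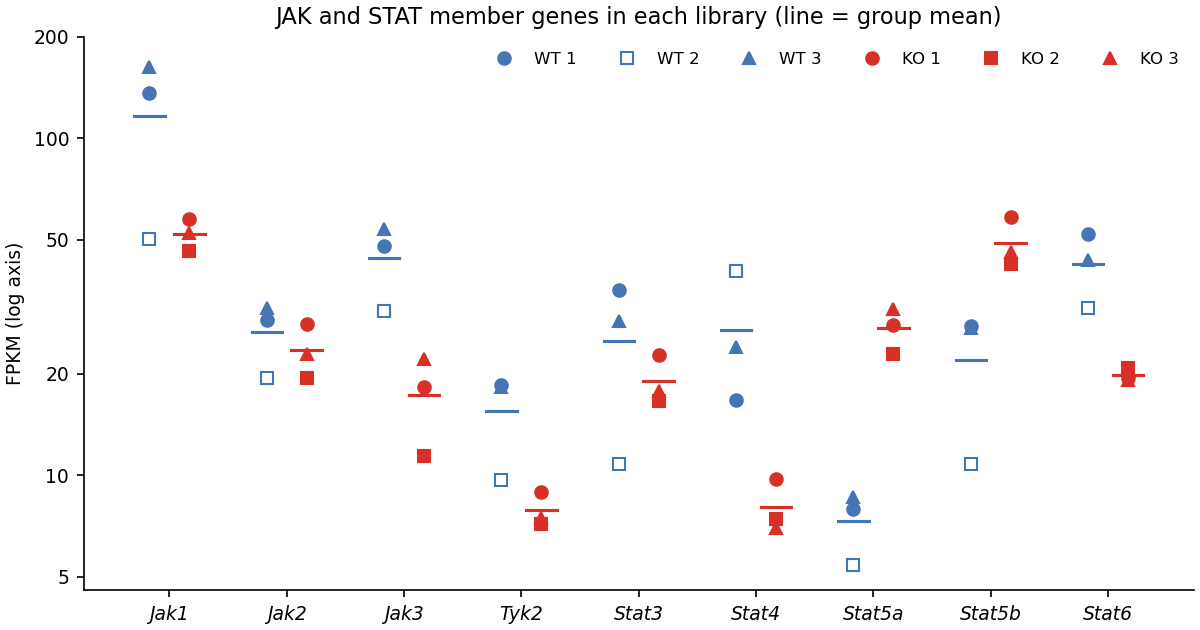
FPKM of the 9 member genes on a log axis, with 1 point per library, blue for WT and red for KO, and a line at each group's mean of 3. The KO points of Stat5a and Stat5b all lie above the WT points, those of Jak3, Tyk2, Stat4 and Stat6 all lie below, and WT 2 (open square) is the lowest WT library for every member but Stat4.

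Jak1 was the most abundant kinase of the family in both groups. Jak1 (ENSMUSG00000028530, chromosome 4, 101152367 to 101265282, minus strand), which pairs with JAK3 on gamma chain receptors, had 137, 50.2 and 163 FPKM in WT 1, WT 2 and WT 3 and 57.7, 46.2 and 52.4 FPKM in KO 1, KO 2 and KO 3. WT 1 and WT 3 were far above every KO library, while WT 2 lay among them. The means were 117 ± 58.9 and 52.1 ± 5.78 FPKM (SD, n = 3), and the log2 fold change of -0.99 (SE 0.47, 95% interval -2.13 to 0.15) had an adjusted p of 0.183. Leaving out WT 2 moved it to -1.51, which passed the threshold. Over the 6 fits that each left out a library the value ran from -1.51 to -0.67.

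Jak3 is the mouse gene of the kinase whose changed form, JAK3 M511I, was introduced by retrovirus. Jak3 (ENSMUSG00000031805, chromosome 8, 71676296 to 71690575, plus strand) had 47.9, 30.8 and 53.8 FPKM in WT 1, WT 2 and WT 3 and 18.2, 11.4 and 22.1 FPKM in KO 1, KO 2 and KO 3. All WT libraries were above all KO libraries. Mean FPKM was 2.56 times higher in WT (44.2 ± 11.9 against 17.3 ± 5.46, SD, n = 3), a log2 fold change of -1.32 (SE 0.35, 95% interval -2.15 to -0.48) with an adjusted p of 0.0337. This call was held in 10 of 18 alternatives and was kept in 1 of the 6 fits that left out a library, the one without WT 2, where the fold change was -1.55. Whether transcripts of the retroviral JAK3 were counted under this gene is not given in the sources used here, and endogenous and introduced RNA cannot be told apart. Insl3, a hormone gene, lies over 1362 bases of the Jak3 gene on the same strand and was at 3.96 to 16.1 FPKM, so reads in that stretch are of uncertain assignment.

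The other kinases differed less. Jak2 (ENSMUSG00000024789, chromosome 19, 29251828 to 29313080, plus strand), the kinase of the erythropoietin, granulocyte-macrophage and interferon gamma receptors, had 28.9, 19.5 and 31.2 FPKM in WT 1 to WT 3 and 28.1, 19.5 and 22.9 FPKM in KO 1 to KO 3. The groups overlapped over most of their range, with a log2 fold change of -0.16 (SE 0.28, 95% interval -0.83 to 0.52, adjusted p = 0.729), and it passed the threshold in 0 of 18 alternatives. Tyk2 (ENSMUSG00000032175, chromosome 9, 21104068 to 21131243, minus strand), which serves the type I interferon and interleukin 12 receptors, had 18.6, 9.66 and 18.3 FPKM in WT 1 to WT 3 and 8.94, 7.18 and 7.46 FPKM in KO 1 to KO 3. The lowest WT library, WT 2, was just above the highest KO library, and the log2 fold change of -0.85 (SE 0.31, adjusted p = 0.0938) passed the threshold without WT 2, at -1.14.

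Stat5a showed the largest change of the 9 genes. Stat5a (ENSMUSG00000004043, chromosome 11, 100859351 to 100885169, plus strand), one of the pair of STAT5 genes, had 7.96, 5.40 and 8.58 FPKM in WT 1, WT 2 and WT 3 and 27.9, 22.9 and 31.1 FPKM in KO 1, KO 2 and KO 3. Every KO library was well above every WT library. Mean FPKM was 3.74 times higher in KO (27.3 ± 4.15 against 7.31 ± 1.69, SD, n = 3), a log2 fold change of 1.78 (SE 0.26, 95% interval 1.15 to 2.41, adjusted p = 0.00425). This was the member called in 18 of 18 alternatives, with log2 fold changes between 1.60 and 2.66 and adjusted p between 4.82e-05 and 0.0292.

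Stat5b (ENSMUSG00000020919, chromosome 11, 100780731 to 100850724, minus strand) is the second STAT5 gene and encodes a protein with overlapping functions. It had 27.7, 10.8 and 27.3 FPKM in WT 1 to WT 3 and 58.2, 42.3 and 46.1 FPKM in KO 1 to KO 3. The KO libraries were again all above the WT libraries, with means of 48.8 ± 8.32 and 21.9 ± 9.65 FPKM (SD, n = 3). The log2 fold change of 1.22 (SE 0.40, 95% interval 0.25 to 2.19) missed the threshold (adjusted p = 0.0712). It passed without WT 2, which held the lowest value, although the fold change was then smaller, at 0.79.

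The STAT5 genes stand head to head, with starts 8627 bases apart. In transcripts of the annotation, the genes share 175 windows of 150 bases, 2.21% of the windows of Stat5a and 3.16% of those of Stat5b, so the split of reads between them is uncertain over that part only. In the 250 bases before the annotated RefSeq starts (GRCm38.p6; 12 starts for the 9 members), the longest run shared by any of the 66 pairs of windows was 16 bases, between a Stat5a and a Stat5b start, and the longest shared by any other pair was 12 bases. The 30 bases that end with this run are shown because both genes were above WT in every KO library. Capitals mark runs of at least 10 bases found in both windows, the first of which begins before the stretch shown, and each is written 5′ to 3′ on the strand of its gene:
Stat5a, chr11:100860438-100860467, plus strand: GCTGACCTTTgaggAGGAAATCGCTGCTCT
Stat5b, chr11:100822578-100822607, minus strand: GCTGACCTTTtagaAGGAAATCGCTGCTCT
The Stat5a stretch lies within introns of the longer transcripts and in the untranslated first exon of a short one (Stat5a-206), and the Stat5b stretch is intronic in the longer Stat5b transcripts. The 16 bases occurred upstream of 2 of the 32817 starts of all genes, namely these. The STAT recognition letters TTCNNNGAA, and the form with 1 more N between TTC and GAA, both of which read the same on either strand, were found in 0 of the 12 member windows of 300 bases and in 8.29% and 6.94% of all such windows. This says only that these letters are not in these windows.

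Stat3 (ENSMUSG00000004040, chromosome 11, 100885098 to 100939540, minus strand) follows Stat5a on the same chromosome, and their ends overlap by 72 bases on opposite strands. It had 35.5, 10.8 and 28.7 FPKM in WT 1 to WT 3 and 22.7, 16.6 and 17.8 FPKM in KO 1 to KO 3. WT 2 was the lowest and WT 1 the highest of all 6 libraries, so the KO values fell inside the WT range. The log2 fold change was -0.24 (SE 0.45, 95% interval -1.32 to 0.85, adjusted p = 0.746). It was -0.73 and past the threshold without WT 2, and 0.083 without WT 1.

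Among the 16 tested genes that reach within 250 kb of the Stat5a gene, Stat5a was the 1 that rose and Atp6v0a1, a subunit of the proton pump, was the 1 that fell (log2 fold change -2.81, adjusted p = 0.00428). Over all genes tested 13.1% rose and 13.3% fell. The window was set around Stat5a, so its call was certain to be among them. The share of Stat5a in the sum of Stat5a and Stat3 was 18.3%, 33.3% and 23.0% in WT 1 to WT 3 and 55.2%, 58.0% and 63.7% in KO 1 to KO 3. A share within a library does not move with the scaling between libraries. The difference of 34.1 percentage points had an exact two-sided permutation p of 0.1, the smallest that 3 against 3 libraries can give. This pair was formed after the values were seen and holds Stat5a, whose groups were already apart, so the p adds no support.

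**Figure D2:**
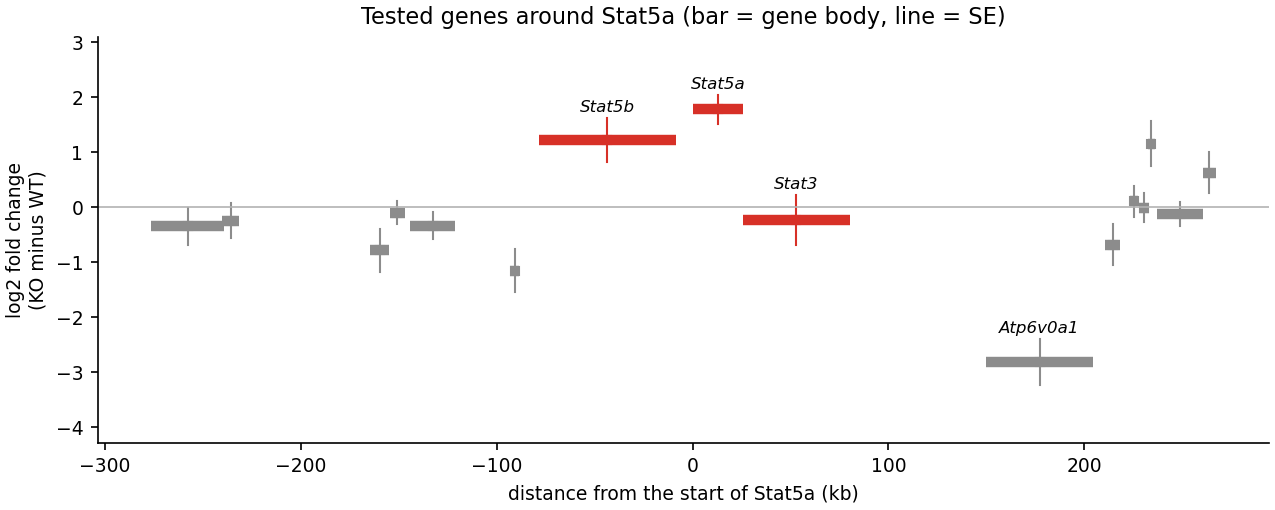
Log2 fold change, KO minus WT, of the 16 tested genes that reach within 250 kb of the Stat5a gene, against distance from its start in kb. A bar spans the gene body, a vertical line is ± 1 SE, STAT genes are red, and other genes are grey and named only where they passed the threshold; Stat5a (1.78) and Stat5b (1.22) lie above 0 beside Stat3 (-0.24).

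Stat4 had the largest decrease. Stat4 (ENSMUSG00000062939, chromosome 1, 51987148 to 52107189, plus strand), the factor through which interleukin 12 drives type 1 responses in T and NK cells, had 16.7, 40.5 and 23.9 FPKM in WT 1, WT 2 and WT 3 and 9.72, 7.40 and 6.96 FPKM in KO 1, KO 2 and KO 3. WT 2 was the highest here, and all WT libraries exceeded all KO libraries. Mean FPKM was 3.37 times higher in WT (27.0 ± 12.2 against 8.03 ± 1.48, SD, n = 3), a log2 fold change of -1.56 (SE 0.36, 95% interval -2.42 to -0.69, adjusted p = 0.0211), and the call was held in 13 of 18 alternatives. It was lost when any 1 of the KO libraries was left out. Leaving out WT 2 gave -1.23, and the adjusted p over the alternatives lay between 0.000817 and 0.149. Stat4 is also expressed in NK cells, whose markers summed to 762 to 1316 FPKM in WT and 581 to 649 FPKM in KO, with 8 of 10 lower, 1 higher and Klra8 at 0 in every KO library. Of the 10 markers, 9 were at 1 FPKM or more in all WT libraries and 3 in all KO libraries, so the sums alone do not show the fall of most. The part of NK cells in the Stat4 difference was not tested.

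Stat6 varied little within the KO group. Stat6 (ENSMUSG00000002147, chromosome 10, 127642986 to 127660957, plus strand), the factor of interleukin 4 and 13 signaling, had 52.0, 31.3 and 43.5 FPKM in WT 1, WT 2 and WT 3 and 19.4, 20.8 and 19.2 FPKM in KO 1, KO 2 and KO 3. The lowest WT library was well above the highest KO library. Mean FPKM was 2.14 times higher in WT (42.3 ± 10.4 against 19.8 ± 0.90, SD, n = 3), a log2 fold change of -1.03 (SE 0.26, 95% interval -1.66 to -0.40, adjusted p = 0.0302), held in 10 of 18 alternatives and in the leave-out fit without WT 2 alone, at -1.23. Its end overlaps Nab2, a corepressor gene on the opposite strand, by 40 bases. Nab2 was at 1.93 FPKM or less in every library, so few reads could pass between them.

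**Figure D3:**
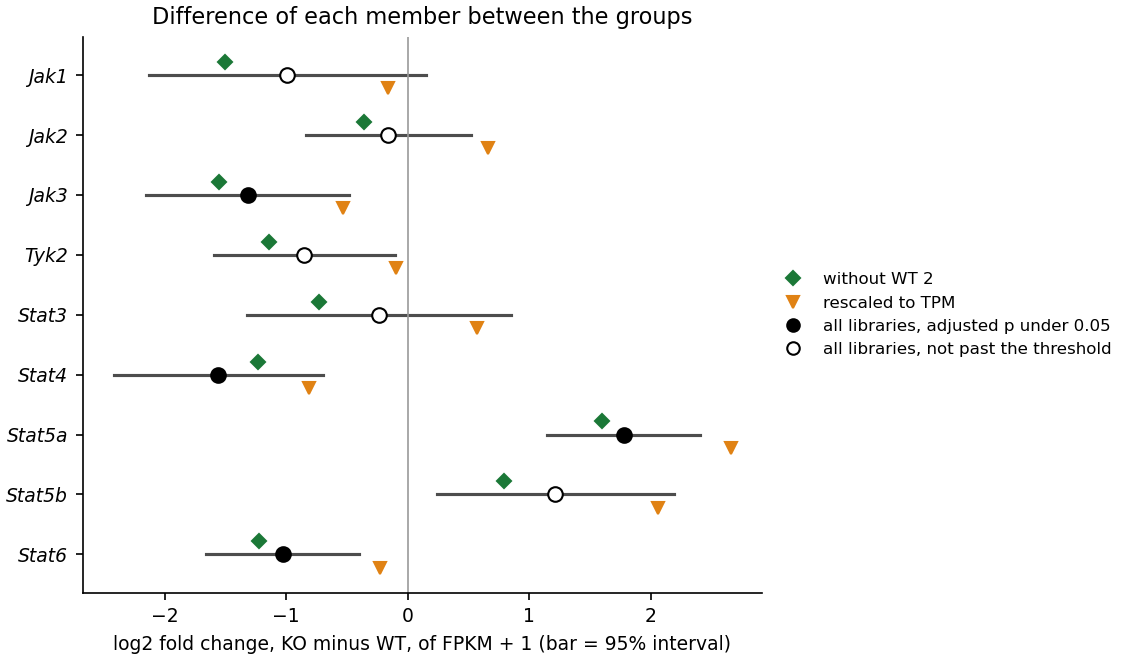
Log2 fold change of FPKM + 1, KO minus WT, for each member with its 95% interval (circles, filled where the adjusted p was under 0.05), without WT 2 (green diamonds) and after rescaling to TPM (orange triangles). Stat5a at 1.78 and Stat5b at 1.22 are the members to the right of 0 in the fit of all libraries, and every triangle lies to the right of its circle.

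Since FPKM depends on how libraries are scaled, each value was also computed as TPM, FPKM rescaled to the same sum in every library. Under TPM 1 member was higher (Stat5a) and 0 were lower by limma, and Jak2 and Stat3 changed sign, to 0.66 and 0.57. The same rescaling moved the median of all genes by 0.77, from 0.09 to 0.86, and moved the split of all calls from 49.6% to 67.8% higher in KO. Relative to the median gene, the 9 members had the same sign on both scales and differed by at most 0.11 between them. TPM multiplies each library by 1 factor, so, apart from the added 1, this likeness was fixed in advance and supports no call. On TPM, relative to that median, Stat5a was at 1.80, Stat5b at 1.21, Stat4 at -1.67, Jak3 at -1.38, Stat6 at -1.08, Jak1 at -1.02, Tyk2 at -0.96, Stat3 at -0.29 and Jak2 at -0.20. With TPM and without WT 2, an alternative added after seeing the data and given as values with no test, Stat5a was at 2.01, Jak3 at -1.26, Stat4 at -0.97 and Stat6 at -0.92 before any such correction.

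The order of levels among the STAT genes differed between the groups. By mean FPKM, which is per length, WT libraries had Stat6, Stat4, Stat3, Stat5b and Stat5a from highest to lowest, and each gene overlapped its neighbour in range except that Stat5b was wholly above Stat5a. KO libraries had Stat5b, Stat5a, Stat6, Stat3 and Stat4, where Stat6 and Stat3 overlapped and every other neighbouring pair did not. Stat5a and Stat5b together, a sum formed after the levels were seen, were 25.5%, 16.4% and 27.2% of the summed FPKM of the 5 STAT members in WT 1 to WT 3 and 62.4%, 59.3% and 63.7% in KO 1 to KO 3. The gap between the highest WT and the lowest KO library was wide, and the difference of 38.8 percentage points (exact two-sided permutation p = 0.1) ranged from 35.5 to 40.9 points when libraries were left out in turn. These are RNA levels and do not measure STAT5 activity. The study measured phosphorylated Stat5 in this model by flow cytometry. It was raised in both JAK3 M511I groups over cells without JAK3 M511I, and loss of Phf6 did not raise it further.

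Within this sum Stat6 went from a mean of 34.0% ± 2.88 in WT to 16.3% ± 2.47 in KO, Stat4 from 23.7% ± 15.3 to 6.51% ± 0.68, and Stat3 from 19.4% ± 7.51 to 15.4% ± 0.93 (SD, n = 3). The Stat3 shares overlapped between the groups and those of Stat4 and Stat6 did not. Without WT 2 the Stat4 difference went from -17.2 to -8.52 points and the Stat3 difference from -3.96 to -8.17 points. Stat5b went from 17.1% ± 5.40 to 39.6% ± 2.29 and Stat5a from 5.89% ± 0.54 to 22.3% ± 2.99, with no overlap. Between the STAT5 genes themselves, Stat5a was 22.3%, 33.4% and 23.9% in WT 1 to WT 3 and 32.4%, 35.1% and 40.3% in KO 1 to KO 3. These shares overlapped, since WT 2 lay above KO 1, and the difference of 9.44 points had an exact two-sided permutation p of 0.2.

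Among the kinases, WT libraries had Jak1, Jak3, Jak2 and Tyk2 from highest to lowest, with Jak2 wholly above Tyk2 and the other neighbours overlapping in range. KO libraries had Jak1, Jak2, Jak3 and Tyk2, with Jak2 and Jak3 overlapping in range. Jak3 was 20.6%, 28.0% and 20.2% of the summed FPKM of the 4 JAK genes in WT 1 to WT 3 and 16.1%, 13.5% and 21.1% in KO 1 to KO 3. KO 3 lay above WT 1 and WT 3, and the difference of -6.02 points was within the spread of the libraries (exact two-sided permutation p = 0.3). Without WT 2 it was -3.51 points. Jak2 made up 14.0% ± 3.23 in WT and 23.3% ± 1.53 in KO without overlap (SD, n = 3, exact two-sided permutation p = 0.1), although its FPKM overlapped. Jak1 (55.2% and 52.0%, exact p = 0.6) and Tyk2 (7.88% and 7.85%, exact p = 0.9) had overlapping shares, and these tests cannot give a p below 0.1. Without WT 2 the Jak1 difference went from -3.27 to -8.08 points and the Tyk2 difference from -0.03 to 0.41 points.

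**Figure D4:**
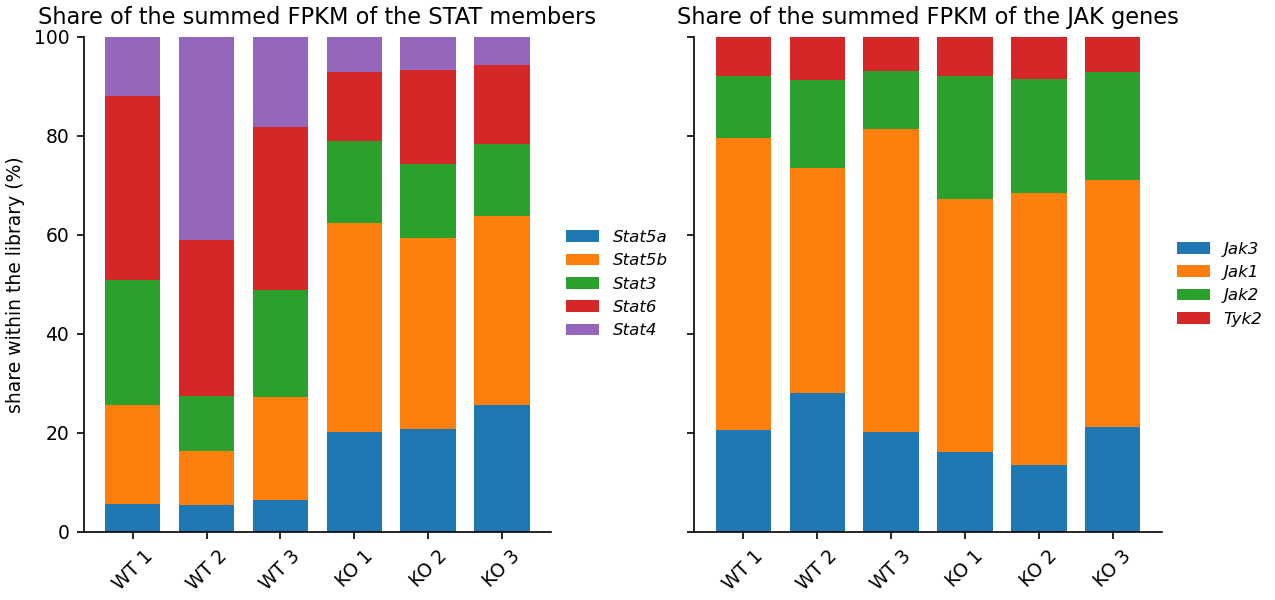
Share of each gene in the summed FPKM of the 5 STAT members (left) and of the 4 JAK genes (right) in each library, in percent, as stacked bars that reach 100%. Stat5a and Stat5b together fill 16.4% to 27.2% of the WT bars and 59.3% to 63.7% of the KO bars, while Jak1 is the largest part of every JAK bar.

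The genes around this core were described from lists of cytokine receptors, ligands, negative regulators, STAT targets and other STATs and partners. Over all genes tested 13.1% rose and 13.3% fell, and the median log2 fold change was 0.09, or 0.86 under TPM. Of 36 receptor genes 28 were tested, 3 rose and 16 fell, with a median log2 fold change of -1.83 beside 0.09 for all genes, and without WT 2 it was 5 and 19. Under TPM 10 fell, with a median of -1.07. Of 5 genes for receptors of the beta common chain and Csf3r, grouped after their values were seen, 0 rose, 4 fell and 1 did not pass. Neutrophil and monocyte markers were also lower in KO, and their part in the receptor counts was not tested. The receptors of the gamma chain, the JAK3-coupled family, were grouped after their values were seen: of 8 genes 2 rose (Il2ra and Il9r), 5 fell (Il2rb, Il2rg, Il4ra, Il7r and Il21r) and Il15ra did not pass. The chains of 1 receptor thus went in opposite directions. Il2ra, the alpha chain that raises the affinity for interleukin 2, had 0.545, 2.16 and 1.19 FPKM in WT 1 to WT 3 and 220, 245 and 224 FPKM in KO 1 to KO 3 (log2 fold change 6.71, SE 0.31, adjusted p = 0.000233). Il2rb, the beta chain that binds JAK1, had 396, 167 and 372 FPKM in WT 1 to WT 3 and 8.53, 2.34 and 9.21 FPKM in KO 1 to KO 3 (-5.41, SE 0.56, adjusted p = 0.0012). All 3 libraries of each group were apart for both chains, by far more than their spread.

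Il2rg, the gamma chain that holds JAK3, had 83.5, 218 and 90.6 FPKM in WT 1 to WT 3 and 38.9, 34.4 and 39.7 FPKM in KO 1 to KO 3 (log2 fold change -1.63, SE 0.41, adjusted p = 0.0299). That call was held in 12 of 18 alternatives and was lost without any 1 of the KO libraries and under TPM (-0.81). Il4ra, the chain that recruits STAT6, had 86.0, 56.3 and 74.5 FPKM in WT and 2.11, 1.22 and 1.66 FPKM in KO (-4.78, SE 0.27, adjusted p = 0.000259). Il4ra passed in 18 of 18 alternatives. Csf3r, the receptor of granulocyte colony-stimulating factor and a gene of neutrophils, had 124, 65.5 and 19.2 FPKM in WT and 0.12, 0.37 and 0.93 FPKM in KO (-5.27, SE 0.66, adjusted p = 0.00237), beside the neutrophil marker levels given above. It met the filter of 1 FPKM in 3 libraries only through WT.

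Of 26 ligand genes 4 were tested. Il10, an anti-inflammatory cytokine, rose (log2 fold change 1.43, SE 0.38, adjusted p = 0.0355), and it passed in 9 of 17 alternatives but not without WT 1 or without any 1 of the KO libraries. It had 0.84, 0.065 and 1.03 FPKM in WT 1 to WT 3, with as few as 1 read, and 5.53, 2.86 and 2.09 FPKM in KO 1 to KO 3. Ifng, the type 1 cytokine that STAT4 induces, fell by 3.62 (SE 0.56, adjusted p = 0.00497), Osm, a cytokine of the interleukin 6 family made by myeloid and T cells, fell by 3.24, and Ebi3, a subunit of interleukins 27 and 35, fell by 3.17 on the log2 scale. Ebi3 had 10.6, 21.5 and 2.91 FPKM in WT 1 to WT 3 and 0.14, 0.055 and 0.16 FPKM in KO 1 to KO 3. It met the filter of 1 FPKM in 3 libraries only through WT, so its call is not independent of that filter.

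All 21 negative regulators were tested, of which 2 rose and 4 fell, beside 13.1% and 13.3% of all genes tested. Their median was -0.59 (0.22 under TPM), beside 0.09 (0.86 under TPM) for all genes. Socs1, which blocks JAK kinase activity, rose by 1.03 (adjusted p = 0.0463) and Pias2, a SUMO ligase, rose by 1.02 (adjusted p = 0.0145), which held in 11 and 14 of 18 alternatives. Pias3, known as an inhibitor of STAT3, had 8.17, 3.17 and 8.68 FPKM in WT 1 to WT 3 and 0.575, 0.827 and 0.92 FPKM in KO 1 to KO 3 (log2 fold change -2.02, SE 0.37, adjusted p = 0.00927). Dusp2, a phosphatase, was at -1.97, Sh2b3, an adaptor that restrains JAK2, at -1.63 and Socs2 at -1.21. These 4 calls were lost under TPM. For each of these 4 every KO library was below every WT library, and the remaining 15 regulators did not pass.

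Of 24 STAT target genes 23 were tested, 2 rose (Il2ra and Socs1) and 13 fell, with a median of -1.15. Without WT 2 it was 3 and 14, and under TPM 5 fell and the median was -0.33, beside 0.86 for all genes. The targets with the largest differences besides Il2ra and Ifng were Il18rap, an interleukin 18 receptor chain (log2 fold change -5.26, SE 0.41, adjusted p = 0.00048), and Tbx21, the master factor of type 1 responses (-3.97, SE 0.33, adjusted p = 0.000553). Both belong to the programme that STAT4 serves, and both were lower in 3 of 3 KO libraries. The chains of the interleukin 12 receptor, looked up after the values were seen, went the other way. Il12rb1 rose (1.63, adjusted p = 0.0367), held in 12 of 18 alternatives. Il12rb2 was above WT in every KO library but did not pass (1.99, adjusted p = 0.0561). Genes usually cited as STAT5 targets went both ways, and were picked out here after their values were seen: Il2ra rose, while Bcl2 (-2.08, adjusted p = 0.0303), Pim1 (-1.09, adjusted p = 0.0302), Ccnd2 (-3.49, adjusted p = 0.00243) and Socs2 fell, and Cish (-0.83, adjusted p = 0.12) did not pass. Other genes of the list also differed in direction. Socs1 rose, and Pim2 (-2.85, adjusted p = 0.00481) and Osm fell. Myc (1.03, adjusted p = 0.0838) and Bcl2l1 (0.14, adjusted p = 0.718) did not pass. The call of Ccnd2 held in 18 of 18 alternatives, that of Pim1 in 10 and that of Bcl2 in 11. Under TPM Pim1 (-0.27), Bcl2 (-1.31) and Socs2 (-1.25) did not pass. Among the 6 fits that left out a library, Pim1 passed in the 1 without WT 2 and Bcl2 in the 2 without WT 2 or KO 3.

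Among 5 tested partner genes (Stat2, Irf9, Stam, Stam2 and Sh2b1), 0 passed by limma, 0 passed by voom on the recovered reads, and 0 were higher and 1 was lower at an unadjusted p under 0.05. Without WT 2, Sh2b1 was lower. Stat2, a factor of interferon signaling, had 8.69, 8.25 and 7.70 FPKM in WT 1 to WT 3 and 9.67, 8.15 and 9.07 FPKM in KO 1 to KO 3, which overlap.

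**Figure D5:**
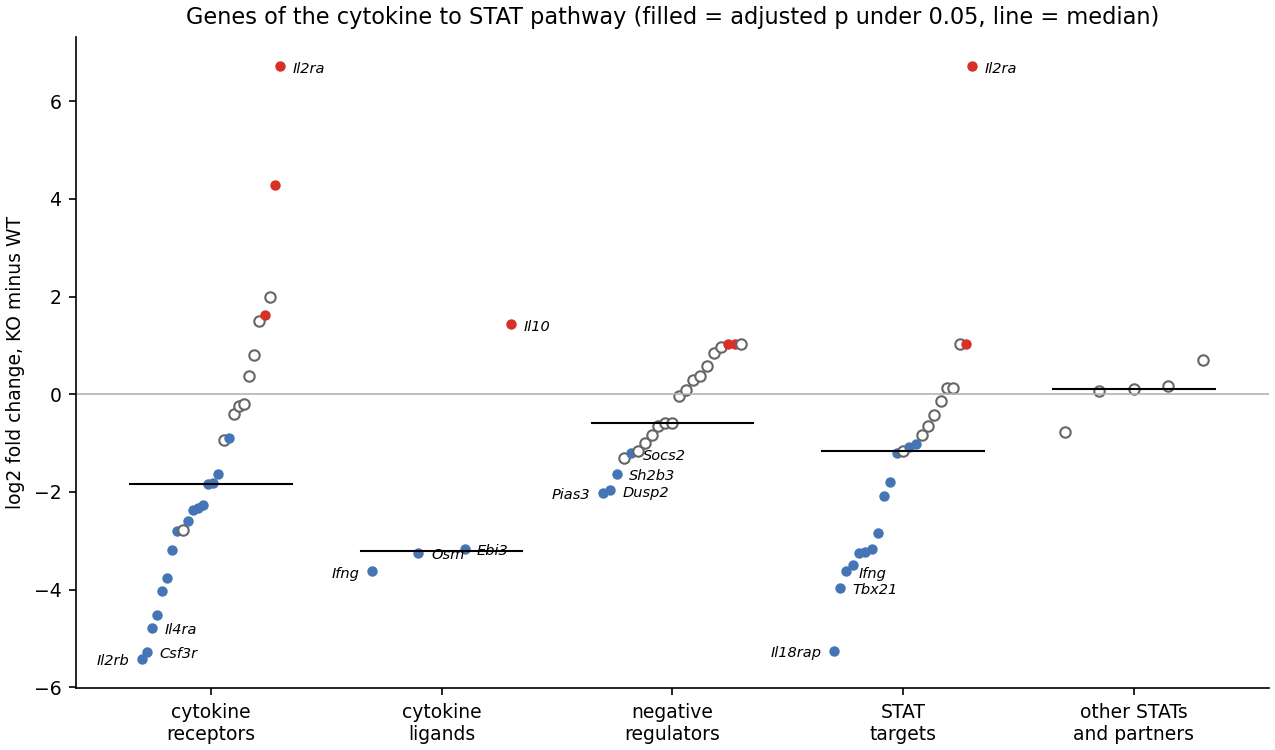
Log2 fold change, KO minus WT, of the tested genes in the 5 pathway lists, with 1 point per gene, filled red (higher in KO) or blue (lower) where the adjusted p was under 0.05 and open otherwise, and a black line at each list's median. Receptors span from -5.41 (Il2rb) to 6.71 (Il2ra), and the points of the other STATs and partners are all open.

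The profiles of the members over the 6 libraries were set beside each other and beside 10388 tested protein-coding genes, as descriptions over libraries that share group, depth and composition. Stat5a and Stat5b had a Pearson r of 0.90, and both ran against Stat4 (-0.94 and -0.91). Jak1 and Tyk2 had 0.97, and Tyk2 and Stat6 had 0.95. The genes most like Stat5a were Patz1, a zinc finger transcription factor (r = 1.00 when rounded, with 8.91, 6.63 and 10.1 FPKM in WT and 27.0, 22.3 and 29.3 FPKM in KO), and Serhl. Those most like Stat5b were Abca3 and Ahcyl1, and those most like Stat4 were Rom1 and Traf3ip3. Jak3 was closest to Pacs2 (0.99) and to Bcl2 (0.99), the survival gene, and Stat6 to Fbxo10 and C9orf72. Jak1 was closest to Rapgef6 and Mkl2, Tyk2 to Ssh2 and Nab1, Stat3 to Purb and Sos2, and Jak2 to Pkp4 and Pex5. With 6 libraries in 2 separated groups, many genes reach such values: 665 of the 10388 had an r of at least 0.95 with Stat5a, and 20 had one with Jak2.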

How the data were processed

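RNA of BM cells was measured in 6 libraries. The authors deposited a table of FPKM per gene, with the gene length and coordinates. The submitters' processing notes name HISAT2 2.0.5, featureCounts 1.5.0-p3 and GRCm38 (mm10), and the study tested differential expression with DESeq2. Which annotation release was used, and whether counting used strand, is not given in the sources used here. Coordinates of 53462 of 54532 genes, and of all 9 members, were identical to GENCODE M21.

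FPKM times length gave whole reads in 100% of values, so reads were recovered (13015823 to 18235095 per library). The ratio of the size the authors divided by to this total was 0.645 in WT 2 and 1.01 to 1.21 in the other libraries. The FPKM of all genes summed to 897352 in WT 2 and to 244936 to 329893 in the others. Reads under a member numbered 434 to 18245 in a library. Library number limits the precision more than counting does.

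Testing was limited to genes that reached 1 FPKM in 3 or more libraries, and was done on log2(FPKM + 1), a scale that understates changes of low genes, with limma 3.58.1 (lmFit, eBayes with trend, two-sided) in R 4.3.3, and the script was tested on simulated data. Genes under 1 FPKM in every library of a group, such as Ebi3, Csf3r, Il18rap, Pias3, Socs2 and Il9r, met this limit only through the other group. Their calls are therefore not independent of the filter. Shares used an exact two-sided permutation test. Tables were read with data.table, version 1.17.8, and, in Python 3.11.15, SciPy 1.17.1, NumPy 2.4.6, Matplotlib 3.10.9 and pandas 2.3.3. Promoter sequences were from RefSeq. The members and lists were chosen with earlier results of these data known. Genes named were the 9 members, Phf6, in each list the 4 past the threshold with the largest absolute log2 fold change, and for each member the 2 protein-coding genes of highest Pearson r. Others were chosen after their values were seen, as were the sums of both STAT5 genes and the pairs Stat5a with Stat3 and Jak3 with Jak1, and the neighbours within 250 kb. Alternatives were other pseudocounts, filters, scalings, models, a replicate block and each library left out. The genotype labels name a symbol whose digit rises between samples, and Phf6 was read from the design text. A result for 1 further gene is not reported here.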

Additional observations from a re-analysis of the deposited data

How the results depend on the processing

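Of 411 values computed under the alternatives for 23 named genes (Phf6 not among them), 361 kept their direction and their side of the threshold, 35 no longer passed it, 12 newly passed it and 3 reversed (Jak2 and Stat3 under TPM, and Stat3 without WT 1). Phf6 reversed in 3 further values. Rescaling to TPM gave reversed values for Jak2 (0.66), Stat3 (0.57) and Phf6 (0.69). No cause was tested. Of the members, 2 were higher under quantile normalization, removal of a length trend and array weights, and 0 (TPM), 1 (quantile), 5 (length trend) and 6 (array weights) were lower. Partner genes had 1 lower under array weights. Receptors had 5 higher under array weights and 10 lower under TPM. Ligands had 0 higher under a pseudocount of 0.1, no filter, a mean FPKM of at least 5, the length trend and voom. Regulators had 1 higher under no filter and under a mean of at least 5, and 2 (mean of at least 5), 0 (TPM), 7 (length trend) and 9 (array weights) lower. STAT targets had 1 higher under no filter and under a mean of at least 5, and 5 lower under TPM. Median-of-ratios scaling gave the same factor, 1.02, for every library. It therefore could not change a call, although it is counted as 1 of the alternatives.

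Leaving out each library in turn gave 1 to 2 members higher and 0 to 6 lower. The 3 fits without a KO library gave 0 lower, those without WT 1 or WT 3 gave 1 (Stat4), and the fit without WT 2 gave 6. Partners ranged over 0 to 1 lower, receptors over 2 to 5 higher and 10 to 19 lower, ligands over 0 to 1 higher, regulators over 0 to 3 higher and 3 to 9 lower, and targets over 1 to 3 higher and 7 to 14 lower. Stat3 ranged from -0.73 to 0.083 and Phf6 from -0.37 to 0.10, with reversals to 0.083 without WT 1 for Stat3, and to 0.055 without WT 1 and 0.10 without WT 3 for Phf6.

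The labels do not say whether libraries of the same replicate number were handled together. Deviations from the group means of same-numbered libraries correlated at 0.10, 0.10 and -0.15, and the best partner had the same number for replicate 1 only. So few correlations cannot decide whether the libraries were paired. With the replicate block, 1 member was higher (Stat5a) and 1 lower (Jak3), and 0 regulators and 1 target were higher. The mean of the paired differences equals the difference of the group means, so the size of a share difference could not change. For both STAT5 genes it was 38.8 points (exact p = 0.25, the smallest that 3 pairs allow).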
